A study of Mus musculus with 3 samples.

Results

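The comparison described here sets RAW264.7 cells at high density given bacterial lipopolysaccharide (LPS) beside RAW264.7 cells at high density without it. RAW264.7 is a mouse macrophage cell line from an ascites tumour induced by Abelson murine leukaemia virus, so both groups are the same transformed line and hold no second cell type by design. Both groups were grown in RPMI medium with serum, antibiotics and glutamine. The treated group received LPS at 500 ng/ml for 24 h, beginning 24 h after seeding, and the untreated group had no LPS. The sources used here give neither poly-A selection nor strand. The series also holds a low density library, which enters no value below. With 1 library in each group there was no replicate spread to compare with, so no test was made and every value describes these 2 libraries. The genes were taken by level and not by change. A gene symbol was kept where its row reached 1 FPKM or more in either library (fragments per kilobase of transcript, adjusted for library size by Cuffdiff) without a failed status. These were 11010 genes of 45270 symbols with a row, and 11402 genes were measured in either of the study's tables.

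LPS is a glycolipid of the outer membrane of Gram-negative bacteria. Macrophages bind it through CD14 and the receptor complex of TLR4 and MD-2. One adaptor branch, through MyD88, activates NF-kB and MAP kinases and with them cytokine genes. The other, through TRIF, activates IRF3 and type I interferon, which then acts back on the same cells through its receptor and induces antiviral genes. Feedback inhibitors follow the first wave, and at late times activated macrophages also alter their metabolism, iron handling and division.

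The promoters of 5 genes are shown as examples of an interferon-stimulated core, an NF-kB core and the CHR, elements described where they first appear. They are 300 bases each, 250 before and 50 from the listed start, from RefSeq on GRCm38.p6, written 5′ to 3′ on the gene's strand. Capitals mark only the motif for which a promoter is shown, and matches to other motifs are left in lower case. Positions are counted from the listed start, which is 0. Isg15, whose row overlaps Agrn, encodes a ubiquitin-like antiviral protein and was 2.13 FPKM without LPS and 230 with it. Its promoter (chr4:156200769-156201068, minus strand) has 3 overlapping matches to the core of the interferon-stimulated response element, searched as GAAA, any 2 bases and GAAA, beginning at -78, -72 and -66. Among the 15 genes with the largest ratios it is the only listed promoter with this core. Cytip, with the smallest ratio, holds the core too and is not shown. The other promoters were chosen after values were seen.

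Isg15: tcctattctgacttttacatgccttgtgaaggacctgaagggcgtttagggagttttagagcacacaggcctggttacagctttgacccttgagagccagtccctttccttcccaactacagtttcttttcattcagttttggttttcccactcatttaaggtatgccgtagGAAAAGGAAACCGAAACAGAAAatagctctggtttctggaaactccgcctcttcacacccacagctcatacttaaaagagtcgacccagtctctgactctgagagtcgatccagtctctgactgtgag

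Cxcl10 encodes an interferon-induced chemokine and was 0.0628 FPKM without LPS and 19.98 with it. Its promoter (chr5:92348840-92349139, minus strand) has 1 match to the same core, at -213, and also holds an NF-kB core and an AP-1 core in lower case. Nfkbia encodes IkB-alpha, the inhibitor that holds NF-kB in the cytoplasm, and was 43.7 and 131 FPKM. Its promoter (chr12:55492598-55492897, minus strand) has 1 match at -29 to an NF-kB core, searched as GGGA, any 2 bases and TTCC, here read on the opposite strand.

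Cxcl10: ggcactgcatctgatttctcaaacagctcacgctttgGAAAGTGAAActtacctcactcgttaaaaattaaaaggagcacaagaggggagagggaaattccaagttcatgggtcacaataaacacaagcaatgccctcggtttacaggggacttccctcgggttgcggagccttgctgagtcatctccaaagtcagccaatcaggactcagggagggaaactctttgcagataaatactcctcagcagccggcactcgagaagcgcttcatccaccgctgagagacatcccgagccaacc
Nfkbia: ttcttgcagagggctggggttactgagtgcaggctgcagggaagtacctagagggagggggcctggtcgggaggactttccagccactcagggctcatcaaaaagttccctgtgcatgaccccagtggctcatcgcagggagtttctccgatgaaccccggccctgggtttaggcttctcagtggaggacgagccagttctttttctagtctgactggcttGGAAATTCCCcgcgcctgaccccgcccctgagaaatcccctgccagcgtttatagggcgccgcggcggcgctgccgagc

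The last pair shows the CHR, TTTGAA, an element known from promoters of genes expressed in G2 and mitosis. Ccnb2 encodes cyclin B2 and was 111 FPKM without LPS and 30.7 with it. Its promoter (chr9:70421505-70421804, minus strand) holds the CHR at -167 and at 4. Plk1, encoding a mitotic kinase, was 67.9 and 20.4 FPKM, and its promoter (chr7:122159185-122159484, plus strand) holds the CHR at 30.

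Ccnb2: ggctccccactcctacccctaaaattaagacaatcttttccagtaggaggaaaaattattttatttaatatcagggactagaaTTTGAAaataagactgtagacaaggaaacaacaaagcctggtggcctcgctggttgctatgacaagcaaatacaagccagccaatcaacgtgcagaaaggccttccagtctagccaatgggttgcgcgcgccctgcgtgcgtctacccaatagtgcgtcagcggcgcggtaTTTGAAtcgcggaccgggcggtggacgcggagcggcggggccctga
Plk1: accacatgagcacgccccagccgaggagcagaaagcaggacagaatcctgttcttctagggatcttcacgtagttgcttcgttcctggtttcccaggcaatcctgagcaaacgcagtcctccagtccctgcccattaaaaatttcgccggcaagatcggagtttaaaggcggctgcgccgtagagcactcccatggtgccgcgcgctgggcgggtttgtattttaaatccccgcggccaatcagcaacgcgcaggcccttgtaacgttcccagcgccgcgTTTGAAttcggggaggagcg

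Ratios below are log2((FPKM with LPS + 1)/(FPKM without LPS + 1)), positive where the LPS library was higher. The 1 added to each value makes the change of low genes look smaller than it was. A gene is called higher at a ratio of 1 or more (2-fold) and lower at -1 or less. Of the measured genes 947 were higher (8.6%), 643 were lower (5.84%), and in either direction 1590 were called (14.4%). The median gene was at 0.03 and the range from the 5 to the 95 percentile ran from -1.07 to 1.31. The larger steps were upward more often: 84 genes were at least 8-fold higher and 12 at least 8-fold lower. Among called genes 59.6% were higher. When both libraries were scaled to the same upper quartile, the split turned to 788 higher and 820 lower (49.0% higher), with the median of all genes at -0.08. Of the 10001 genes that reached 1 FPKM in both libraries, 7.10% were higher and 4.70% lower. A gene under 1 FPKM in 1 library was measured only through the other, so the minimum fixed its direction. This held for 237 of the higher genes and 173 of the lower ones, and for each measured gene below with such a value.

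**Figure D1:**
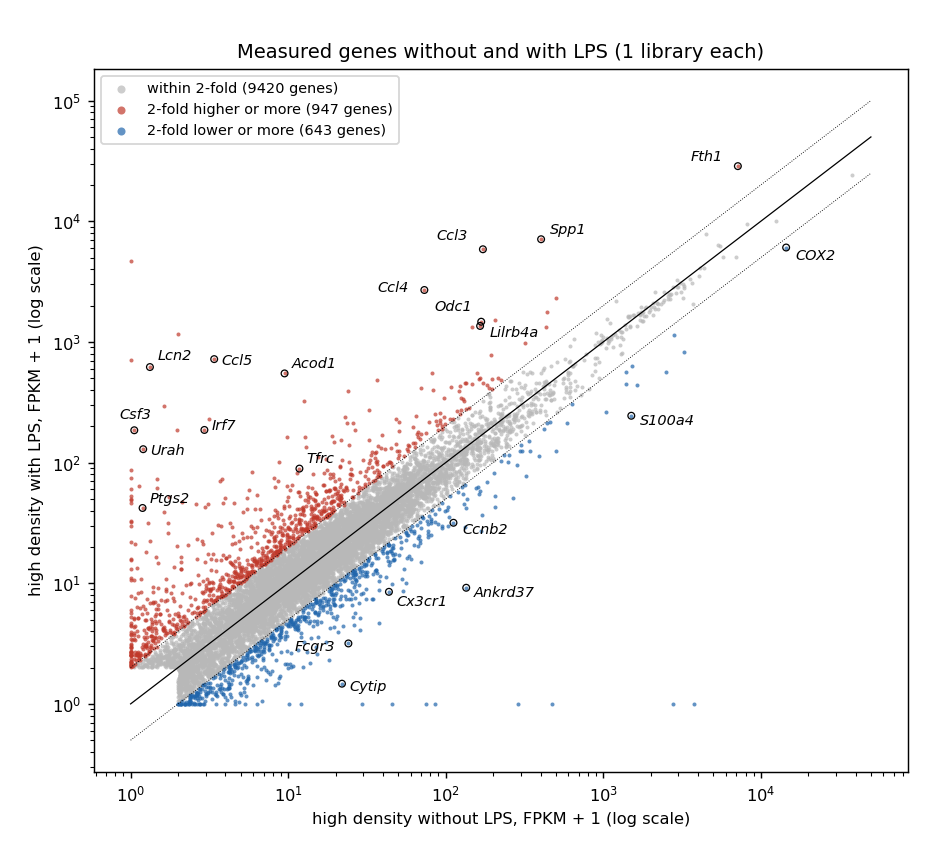
FPKM + 1 without LPS (x axis) and with LPS (y axis), both on log scales, with 1 point per measured gene and 1 library per axis. Red points are the 947 genes at least 2-fold higher, blue points the 643 at least 2-fold lower and grey points the 9420 within 2-fold, the solid line marks equality and the dotted lines 2-fold. Points on the left and bottom edges are listed at 0 in 1 library.

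The called genes were chosen by ratio, which fixes the direction of their part in the summed FPKM. The 947 higher genes made up 3.60% of the summed FPKM without LPS and 16.3% with it, while the 643 lower genes made up 9.09% and 2.75%. Of the 15 mitochondrial rows 8 were among the lower genes, with COX2 at 14485 and 6060 FPKM, and 1 was among the higher. Fth1, the ferritin heavy chain that stores iron, was 7152 FPKM without LPS and 28640 with LPS, the highest protein-coding gene in the LPS library. Fth1 is known to have processed copies in the genome, and the counting of reads shared with them is not given. Spp1, encoding the secreted matrix protein osteopontin, was 402 and 7096 FPKM. Ccl3 and Ccl4, chemokine genes that share 1 locus in the table, were 171 and 5860 FPKM and 72.2 and 2693 FPKM. These secreted products stood beside housekeeping genes with LPS, since Eef1a1 (elongation factor 1 alpha) was 5349 and 6355 FPKM and Gapdh 2949 and 3230 FPKM. Filip1l, at 5536 and 6265 FPKM, lies in a locus overlapping Cmss1, so its reads may belong to the neighbour. Rows of other named genes also overlap measured neighbours, among them Ccl5, Acod1, Psme2, Cd274, Pfkm, Npc1, Adam8, Hspa5, Spi1, Cx3cr1 and Adgre5. Such overlap is not stated at every gene below.

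Values of exactly 0 may reflect an estimate that failed, and they are given as listed at 0. The table showed a step of 1 fragment at 0.0544 FPKM times kilobases without LPS and 0.0692 with LPS, or about 18.4 and 14.5 fragments per FPKM over 1 kilobase. A value near 1 FPKM therefore rests on few fragments. Of 13 measured macrophage markers 3 were higher and 0 lower, among them Adgre1 (F4/80) at 18.2 and 75.5 FPKM. The myeloid factor gene Spi1 (PU.1) was 123 and 122 FPKM, and Csf1r, the receptor of the macrophage growth factor, 165 and 114 FPKM. Markers of fibroblasts and epithelium reached 1 FPKM in 0 of 14 cases and dendritic cell markers in 0 of 9, and lymphocyte markers in 2 of 15. Neutrophil and mast cell markers were measured in 2 of 13 cases, both only through the untreated library, so the minimum fixed their direction. The 2 were the granule protease genes Prtn3, at 7.64 and 0.482 FPKM, and Elane, named after its values were seen, at 1.40 and 0.0954 FPKM. All 13 markers together summed to 9.19 FPKM without LPS and 0.899 with it. In bulk RNA, fewer cells of a kind and less RNA per cell cannot be told apart.

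Sensing came first among the roles. Of 26 proteins of the LPS receptor and its adaptors all were measured in both libraries, 6 were higher (23.1%) and 0 lower, and the median ratio was 0.39. The receptor itself differed little: Tlr4 was 10.6 FPKM without LPS and 7.94 with it, and Ly96, encoding MD-2, was 12.5 and 17.1. Cd14, the co-receptor that hands LPS to the complex, was 433 and 1316 FPKM. Tlr2, which senses bacterial lipoproteins, was 35.0 and 47.0 FPKM. The 2 kinase genes Irak2 and Ikbke were among the higher members, Irak2 at 16.6 and 85.5 FPKM and Ikbke at 11.9 and 47.8 FPKM, although Ikbke overlaps several other genes. Ticam1, which encodes the adaptor TRIF, was 13.3 and 33.5 FPKM.

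Cytosolic sensors of nucleic acid and inflammasome genes had 6 of 18 measured members higher and 1 lower, 2 of the higher ones measured only through the LPS library. Zbp1, a sensor of Z-form nucleic acid, was 0.130 FPKM without LPS and 62.8 with LPS. The RNA sensor genes Ddx58 (RIG-I) and Ifih1 (MDA5) were 2.29 and 24.99 FPKM and 0.493 and 8.19 FPKM. Casp4, the mouse caspase-11 that binds LPS inside the cell, was 3.49 and 23.7 FPKM. The member that was lower, Nlrx1, a mitochondrial NLR protein named after its values were seen, was 7.72 and 3.33 FPKM.

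Feedback inhibitors were higher as a list. Of 30 measured members 22 were higher (73.3%) and 1 lower, with a median of 1.55. Of the 27 at 1 FPKM or more in both libraries, 19 were higher. Il1rn encodes the antagonist that blocks the interleukin 1 receptor and was 11.7 FPKM without LPS and 322 with it. Dusp1, a phosphatase that switches off p38 and JNK kinases, was 5.35 and 52.6 FPKM, and Nfkbiz, a nuclear IkB protein, 4.15 and 38.1. Usp18, which removes ISG15 and blocks the interferon receptor, was 0.743 and 50.8 FPKM. Tnfaip3, encoding the ubiquitin-editing enzyme A20, was 3.65 and 11.1 FPKM. The opposite member was Zfp36l1, an RNA-binding decay factor, at 25.6 and 11.02 FPKM, while its relative Zfp36 (tristetraprolin) was 18.3 and 79.3 FPKM. Il10, the anti-inflammatory cytokine, stayed under 1 FPKM at 0.0522 and 0.132. Il10ra, a chain of its receptor, was 16.7 and 4.77 FPKM.

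Secreted products divided by family. Of 13 measured CC and CXC chemokines and their receptors on the list, 9 were higher and 1 lower with a median of 4.25, and of the 8 at 1 FPKM or more in both libraries 5 were higher with a median of 3.04. Ccl2, which draws monocytes, was 0.640 FPKM without LPS and 293 with it, and Ccl7, of the same family, was at 73.9 FPKM with LPS but listed at 0 untreated. Cx3cr1, the fractalkine receptor, was the lower member at 42.6 and 7.49 FPKM. Of 36 listed chemokine genes 15 were listed at 0 in both libraries. With no minimum on FPKM the median was 0.46.

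Interleukins, interferons and growth factors had 13 of 21 measured members higher and 2 lower, but 9 of the 21 were measured only through the LPS library. Of the 12 at 1 FPKM or more in both, 4 were higher and 2 lower, with a median of 0.25. Csf3, the granulocyte growth factor G-CSF, was 0.0551 FPKM without LPS and 184 with it. Gdf15, a stress cytokine of the TGF-beta family, was 2.68 and 69.3 FPKM, and Osm (oncostatin M) 5.20 and 25.5. Lif, from the same family as Osm, was 0.195 and 5.43 FPKM. The lower members were Il15, which sustains natural killer cells, at 7.06 and 2.34 FPKM, and Il16 at 17.3 and 8.12 FPKM. Tnf has 4 rows in the table and no level is given for it: of 191 protein-coding symbols with 4 rows, 131 (68.6%) were listed at 0 in both libraries, against 38.6% of those with 1 row.

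Acute-phase, complement and antimicrobial proteins had 8 of 16 measured members higher and 0 lower, with a median of 1.35. Of the 15 at 1 FPKM or more in both libraries, 7 were higher with a median of 0.91. Lcn2, which captures bacterial siderophores, had the largest ratio of the protein-coding genes above 0 in both, at 0.326 and 618 FPKM. Saa3, a macrophage serum amyloid, was 22.7 and 211 FPKM. Slpi, a secreted inhibitor of neutrophil proteases, was 204 and 1515 FPKM. Acod1, which makes the antibacterial metabolite itaconate, was 8.49 and 547 FPKM. With no minimum the median of the list was 0.48.

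The interferon side was broad. Of 35 measured antiviral effectors 28 were higher (80.0%) and 0 lower, with a median of 1.81, and of the 22 at 1 FPKM or more in both libraries 16 were higher with a median of 1.62. Oasl1, which restrains translation of Irf7, was 0.984 FPKM without LPS and 187 with it. Ifi44 and Rtp4, interferon-induced genes, were 0.480 and 72.4 FPKM and 0.468 and 60.4 FPKM. Oasl2, a relative of the oligoadenylate synthetases, was 0.292 and 30.5 FPKM. Enzymes of ADP-ribosylation and ubiquitin-like conjugation had 12 of 22 members higher and 0 lower, with a median of 1.21. Of the 19 at 1 FPKM or more in both libraries, 9 were higher with a median of 0.86. Parp14, a mono-ADP-ribosyltransferase, was 1.08 and 12.2 FPKM, and Trim25, the ubiquitin ligase that activates RIG-I, was 12.3 and 61.4. Usp18 also belongs to this list.

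The factors that carry the interferon signal differed among themselves. Of 18 measured interferon-regulated transcription factors 7 were higher and 2 lower, with a median of 0.72. Irf7, which amplifies type I interferon, was 1.94 FPKM without LPS and 185 with LPS. The receptor chain gene Ifnar1 was 9.65 and 17.0 FPKM. The nuclear body genes Sp140 and Sp100 were 8.97 and 51.1 FPKM and 2.84 and 16.1 FPKM. Lower were Irf1, at 12.3 and 4.69 FPKM, and Irf3, the factor activated by TRIF, at 21.2 and 9.82 FPKM. The guanylate-binding and immunity-related GTPases could hardly be read: of 24 listed genes 4 were measured, all only through the LPS library, so their direction was fixed by the minimum. Mx2, annotated in RefSeq as a transcribed pseudogene of an antiviral GTPase, was at 9.56 FPKM with LPS and listed at 0 untreated.

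In antigen presentation, MHC class I genes and the immunoproteasome had a median of 0.68, with 2 of 14 measured members higher and 0 lower. The 2 were H2-T23 and H2-T24, non-classical class I genes in overlapping rows, at 25.4 and 184 FPKM and 1.85 and 21.2 FPKM, so their reads cannot be assigned to either with certainty. Psme2, a proteasome activator subunit, was 94.3 and 162 FPKM. Co-stimulatory and checkpoint genes had 6 of 14 higher and 1 lower, with a median of 0.73. Lgals9, encoding galectin 9, was 4.87 and 83.1 FPKM and Cd274, encoding PD-L1, 7.18 and 74.1, while Cd40, a receptor for T cell help, was 4.50 and 40.6. Havcr2 (TIM-3), a receptor of galectin 9, was lower at 10.4 and 3.18 FPKM. The median of this list was 0.31 with no minimum, and that of MHC class I was 0.54 at a pseudocount of 5, both under the 1.5-fold that calls a list.

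**Figure D2:**
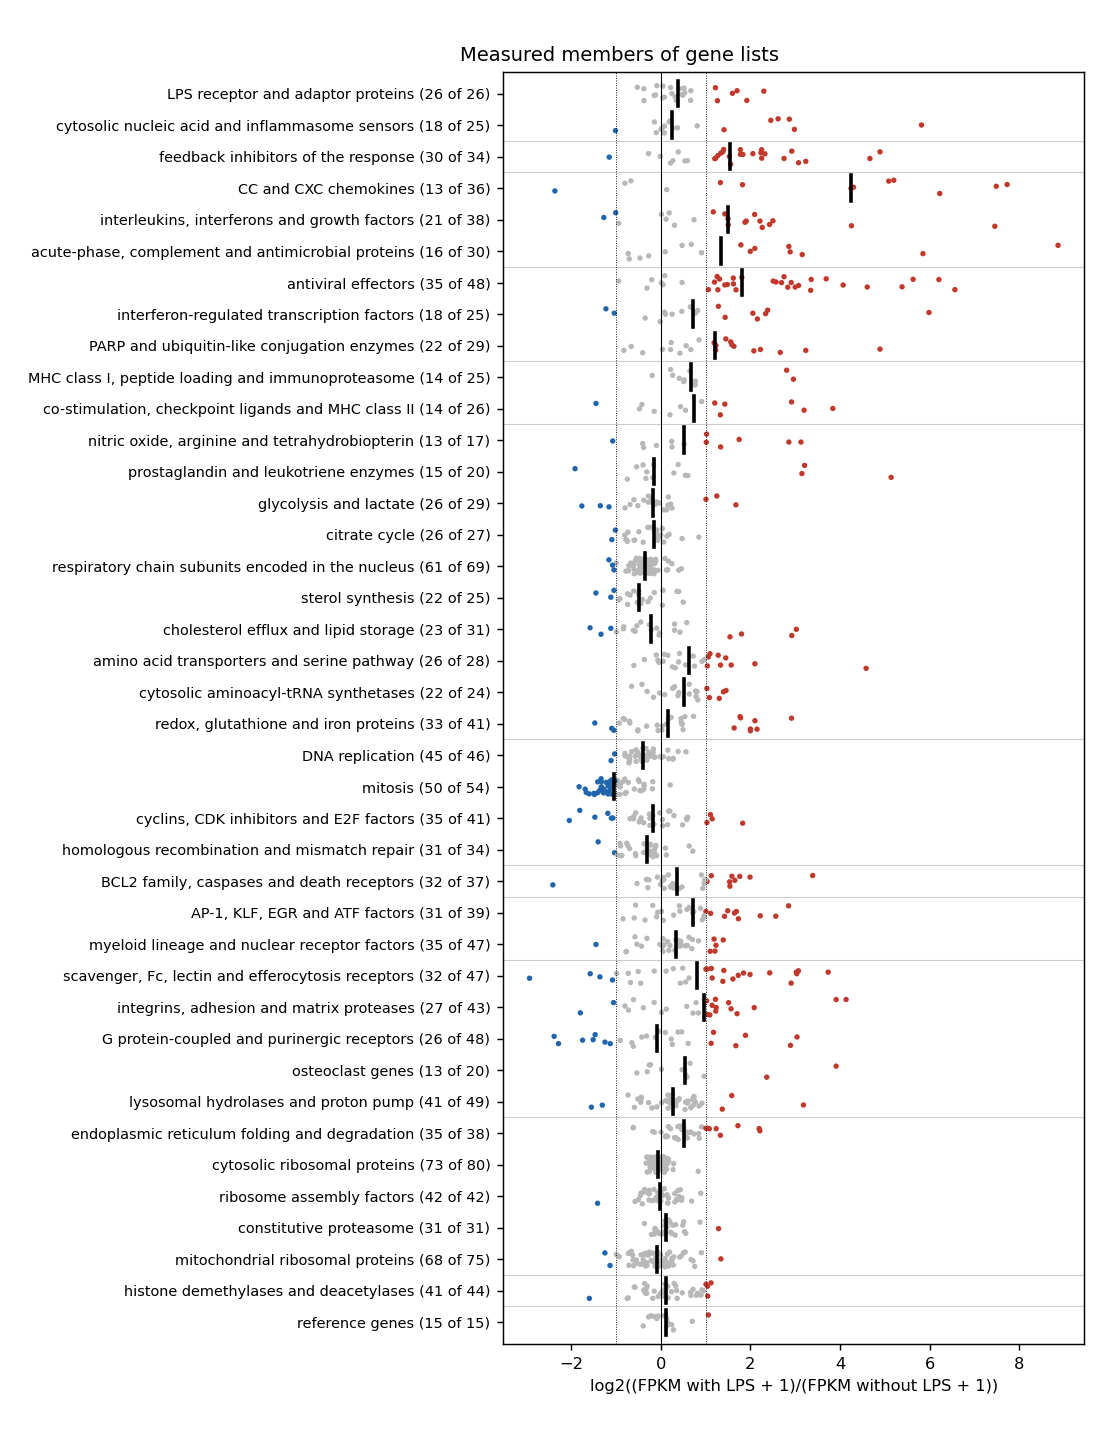
Log2 ratios of the measured members of each list of at least 5 measured genes, with the number measured and listed beside its name, 1 point per gene and a black bar at the list's median. Red and blue points are past 2-fold (dotted lines), and the chemokine median lies at 4.25 and the mitosis median at -1.04, while cytosolic ribosomal proteins gather around -0.07.

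Metabolic genes differed unevenly. In the list of nitric oxide, arginine and tetrahydrobiopterin 6 of 13 genes were higher and 1 lower, with a median of 0.52. Odc1, which makes polyamines from ornithine, was 167 FPKM without LPS and 1470 with it. Nos2, which makes nitric oxide from arginine, was 14.4 and 111 FPKM, and the arginine transporter gene Slc7a1 14.6 and 38.4. Gch1, the first enzyme of tetrahydrobiopterin synthesis, was 16.3 and 57.1 FPKM, while Pts, the next enzyme, was 27.1 and 12.4. The prostaglandin and leukotriene list held 3 higher and 1 lower of 15. Ptgs2 (cyclooxygenase 2) was 0.191 and 41.0 FPKM and Ptges, which completes prostaglandin E2, 1.62 and 22.3. Ptgir, the prostacyclin receptor, was 4.48 and 49.7 FPKM. On the leukotriene side, Ltc4s was 41.1 and 10.2 FPKM and Alox5 37.2 and 21.8, with Ltc4s in a row that overlaps Maml1.

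Glycolytic genes were not called as a list, with 3 higher and 3 lower of 26 and a median of -0.18. Each share was 11.5%, against 8.6% higher and 5.84% lower of all genes. Pfkfb3, which makes the activator of phosphofructokinase, was 17.2 FPKM without LPS and 57.2 with it. Slc2a1, the glucose transporter GLUT1, was 182 and 436 FPKM and the hexokinase gene Hk3 94.0 and 190. Lower were Pfkm, the muscle-type phosphofructokinase, at 44.5 and 16.9 FPKM, and Pdk1, which inhibits pyruvate dehydrogenase, at 35.2 and 15.3. Pdk2, of the same kinase family and named after its values were seen, was 4.56 and 0.641 FPKM. Pdk2 was under 1 FPKM with LPS, so the minimum fixed its direction. The citrate cycle list had 0 higher and 2 lower of 26 (7.69%, against 5.84% of all genes). These were Me2 (malic enzyme), at 38.3 and 17.4 FPKM, and Idh1, the cytosolic isocitrate dehydrogenase, at 41.8 and 20.2.

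Transcripts of the respiratory chain encoded in the nucleus did not reach the 1.5-fold at which a list is called. Of 61 subunits encoded in the nucleus 0 were higher and 3 lower (4.92%, against 5.84% of all genes), with a median of -0.36. The 3 were Uqcr11 of complex III, at 335 and 150 FPKM, and the ATP synthase subunits Atp5g3 and Atp5k, at 457 and 216 and at 439 and 212 FPKM. Transcripts of the mitochondrial genome differed more. COX1 was 12466 FPKM without LPS and 10100 with it, COX2 14485 and 6060, ND1 3275 and 818, and ND3, named after its values were seen, 2493 and 564 FPKM. All mitochondrial rows together made up 13.6% and 7.81% of the summed FPKM. Among them the tRNA rows TrnT and TrnN were listed at 0 with LPS and TrnP without it. Short transcripts were common among lower genes: the median longest transcript of lower protein-coding genes was 2.71 kb, against 3.41 kb within 2-fold and 3.64 kb for higher genes. The part of length in the lower values was not tested. The mRNAs of cytosolic ribosomal proteins had 0 of 73 past 2-fold and a median of -0.07.

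Sterol synthesis had 0 higher and 3 lower of 22, with a median of -0.49. Acat2, which condenses acetyl-CoA, was 46.6 FPKM without LPS and 16.4 with it. Hmgcs1, the next step, was 42.0 and 19.9 FPKM and Idi1, the isopentenyl isomerase, 14.1 and 5.99. Genes of lipid uptake, storage and efflux went both ways, with 4 higher and 3 lower of 23. Cd36, a scavenger receptor for fatty acids and oxidised lipoprotein, was 7.65 and 69.5 FPKM, and Fabp4, a fatty acid carrier, 7.21 and 61.4. Plin2, which coats lipid droplets, was 157 and 549 FPKM and Npc1, the lysosomal cholesterol exporter, 13.3 and 40.7. Scd2, a desaturase, was lower at 282 and 93.8 FPKM.

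Amino acid supply genes were higher in part. Among amino acid transporters and serine pathway genes 9 of 26 were higher (34.6%) and 0 lower, with a median of 0.64 that came to 0.50 at a pseudocount of 5. Of the 25 at 1 FPKM or more in both libraries, 8 were higher with a median of 0.55. Cth, which makes cysteine from cystathionine, was 0.631 FPKM without LPS and 38.1 with it. Aldh1l2, a mitochondrial folate enzyme, was 9.18 and 42.7 FPKM and Asns, asparagine synthetase, 84.6 and 254. Slc7a11, the cystine importer, was 7.98 and 21.7 FPKM. Of 22 cytosolic aminoacyl-tRNA synthetases 5 were higher (22.7%) and 0 lower, with a median of 0.52. The largest were Nars, at 125 and 345 FPKM, Rars, at 64.6 and 172, and Sars, at 130 and 323.

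Iron and redox genes went both ways. Of 33 measured members 8 were higher and 3 lower (24.2% and 9.09%, against 8.6% and 5.84% of all genes). Tfrc, the transferrin receptor that brings iron in, was 10.8 FPKM without LPS and 88.2 with it, and the authors' deposited table calls it higher. Slc11a2, the iron transporter DMT1, was 20.5 and 65.99 FPKM. Fth1 was higher beside them, as given above. Hmox1, which frees iron from haem, was 193 and 776 FPKM and Sod2, the mitochondrial superoxide dismutase, 38.6 and 169. Metallothionein genes, which bind zinc and copper, had lower values, with Mt2 at 120 and 68.4 FPKM and Mt1, named after its values were seen, at 585 and 211.

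Mitosis genes were lower as a list, and replication genes were not called. Of 50 measured mitosis genes 0 were higher and 26 lower (52.0%, against 5.84% of all genes), with a median of -1.04. All 50 were at 1 FPKM or more in both libraries. Ccnb2 and Plk1 are given with their promoters above. Pttg1, encoding securin, was 133 FPKM without LPS and 41.4 with it. Ncapd2, a condensin subunit overlapping Mrpl51, was 76.1 and 24.5 FPKM, and Kif2c, a kinesin that takes apart microtubules, 25.2 and 8.31. DNA replication genes had 0 higher and 2 lower of 45 (4.44%, near the 5.84% of all genes) and a median of -0.39. The lower ones were Tk1, thymidine kinase, at 77.3 and 35.3 FPKM, and Mcm7, a helicase subunit, at 81.3 and 39.4, both in rows that overlap neighbours. Homologous recombination and mismatch repair genes had 2 of 31 lower (6.45%, near the 5.84% of all genes) and a median of -0.30. Among cyclins, CDK inhibitors and E2F factors 4 were higher and 6 lower of 35 (11.4% and 17.1%, against 8.6% and 5.84% of all genes). Of the 33 at 1 FPKM or more in both libraries, 3 were higher and 5 lower. Mxd4, an antagonist of MYC, was 10.6 and 1.81 FPKM and Cdkn2c, a CDK inhibitor, 18.4 and 6.004, while Myc was 0.690 and 5.01 and Cdk6 11.97 and 27.8 FPKM.

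In cell death, 9 of 32 measured genes were higher and 1 lower (28.1% and 3.1%, against 8.6% and 5.84% of all genes). Of the 29 at 1 FPKM or more in both libraries, 8 were higher and 0 lower. The higher ones held both arms. Cflar (FLIP), an inhibitor of caspase 8, was 35.0 FPKM without LPS and 121 with it, and Bcl2a1b, a survival member of the BCL2 family with near-identical copies, was 12.97 and 42.97. Mlkl, the effector of necroptosis, was 3.21 and 15.8 FPKM. Tnfrsf1b, the second TNF receptor, was 11.9 and 134 FPKM, and the authors' deposited table calls it higher. The lower member was Bmf, a BH3-only protein that promotes apoptosis, at 7.74 and 0.648 FPKM. Bmf was under 1 FPKM with LPS, so the minimum fixed its direction.

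Transcription factors of the AP-1, KLF, EGR and ATF families had 10 of 31 higher (32.3%) and 0 lower, with a median of 0.71 (0.50 at a pseudocount of 5). Creb5 was 0.880 FPKM without LPS and 12.6 with it and Atf3, a stress-induced repressor, 69.1 and 415. The small MAF genes Mafk and Maff were 16.4 and 56.7 FPKM and 11.5 and 39.2. In the myeloid and nuclear receptor list 5 of 35 were higher and 1 lower (14.3% and 2.86%, against 8.6% and 5.84% of all genes). Rel, an NF-kB subunit, was 5.97 and 17.3 FPKM, Cebpb 125 and 270, and Hif1a 17.3 and 41.3. Cebpa, named after its values were seen, was 3.16 and 0.526 FPKM, so the minimum fixed its direction.

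Surface receptors of phagocytes were higher as a list, with exceptions. Of 32 measured scavenger, Fc, lectin and clearance receptors 16 were higher and 4 lower, with a median of 0.82 that came to 0.49 with no minimum. Clec4e (Mincle), which binds mycobacterial glycolipid, was 31.7 FPKM without LPS and 274 with LPS. The inhibitory receptor genes Lilrb4a and Lilr4b were 164 and 1356 FPKM and 35.5 and 486 FPKM, and as near-identical copies they may share reads. The lower members were Fcgr3, an activating IgG receptor, at 23.1 and 2.17 FPKM, and Cd300a, an inhibitory receptor, at 41.3 and 15.5. Also lower were Clec7a (Dectin-1), a receptor of fungal glucan, at 2.74 and 0.256, and Adgre5 (CD97) at 2.11 and 0.476. Clec7a and Adgre5 were under 1 FPKM with LPS, so the minimum fixed their direction. Of the 25 receptors at 1 FPKM or more in both libraries, 13 were higher and 2 lower. Marco, another scavenger receptor, was listed at 0 in both libraries.

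Adhesion and matrix genes had 13 of 27 higher and 2 lower, with a median of 0.97. Of the 23 at 1 FPKM or more in both libraries, 10 were higher and 2 lower, with a median of 0.84. Mmp9, a gelatinase, was 0.731 FPKM without LPS and 25.1 with it, so the minimum fixed its direction. Adam8, a surface metalloprotease, was 49.8 and 215 FPKM. The integrin chains differed: Itgam (CD11b) was 23.9 and 80.1 FPKM, while Itga4, which binds VCAM-1, was 30.1 and 7.97. Plau, the urokinase, was the other lower member at 118 and 56.3 FPKM. G protein-coupled receptors and their regulators had 6 higher and 7 lower of 26 (23.1% and 26.9%). Ptafr, the receptor of platelet-activating factor, was 1.86 and 20.3 FPKM and Hcar2, the niacin receptor, 12.4 and 48.8. Rgs1, which damps chemokine receptor signalling, was 24.98 and 213 FPKM. The lysophosphatidic acid receptor genes were lower, Lpar5 at 9.44 and 1.01 FPKM and Lpar6, which lies within Rb1, at 24.7 and 4.29.

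Lysosome genes passed 2-fold about as often as all genes, with 3 higher and 2 lower of 41. These were 7.32% and 4.88%, against 8.6% and 5.84% of all genes. Sqstm1 (p62), a receptor for selective autophagy, was 146 FPKM without LPS and 1335 with it. Man2b1, a mannosidase, was 33.6 and 10.9 FPKM and Cst3, the cathepsin inhibitor cystatin C, 1386 and 561. Endoplasmic reticulum genes had 8 of 35 higher (22.9%) and 0 lower, with Hspa5 (BiP) at 503 and 2308 FPKM and the co-chaperone gene Dnajb9 at 4.15 and 22.9. Of 31 proteasome genes 1 was higher (3.23%), Psmd11 at 56.3 and 139 FPKM. Of 42 ribosome assembly factors 1 was lower (2.38%), Nop10 at 182 and 68.0. Among mitochondrial ribosomal proteins 1 of 68 was higher and 2 lower (1.47% and 2.94%). These shares were under the 8.6% higher and 5.84% lower of all genes. Histone demethylases and deacetylases had 4 of 41 higher (9.76%, near the 8.6% of all genes) and 1 lower. The lower one was under 1 FPKM with LPS, so the minimum fixed its direction. Kdm6b, an H3K27 demethylase, was 6.81 and 14.7 FPKM. Actb, a cytoskeletal reference gene, was 962 and 1020 FPKM.

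Families were also taken by name. Of 17 measured dual-specificity phosphatases 7 were higher (41.2%) and 1 lower. Of the 15 at 1 FPKM or more in both libraries 5 were higher and 1 lower, with a median of 0.23. Dusp4, which acts on MAP kinases in the nucleus, was 22.1 FPKM without LPS and 237 with it. Of 163 solute carriers 21 were higher (12.9%) and 2 lower, led by Slc15a3, a lysosomal transporter of peptides and histidine, at 22.9 and 390 FPKM in a row that overlaps Tmem132a. Slc31a2, related to copper transporters, was 8.87 and 46.9 FPKM. Of 22 TRIM genes 4 were higher and 0 lower, but of the 19 at 1 FPKM or more in both libraries 2 were higher. Of 223 Zfp genes 12 were higher (5.38%) and of 129 Tmem genes 5 (3.88%), both shares under that of all genes. The TNF receptor superfamily had 3 of 12 measured members higher and 2 lower and a median of 0.62, which came to 0.37 at a pseudocount of 5 and 0.41 with no minimum. Beside Tnfrsf1b, Tnfrsf12a, the receptor of TWEAK, was 20.4 and 61.3 FPKM in a row that overlaps neighbours. The lower members, Tnfrsf14 at 1.69 and 0.226 FPKM and Tnfrsf17 at 1.57 and 0.111, were under 1 FPKM with LPS, so the minimum fixed their direction. Of 21 kinesins 0 were higher and 4 lower (19.0%, against 5.84% of all genes), with a median of -0.13. These were Kif2c, Kif14 and Kif20a, which also belong to the mitosis list, and Kif18b at 18.8 and 8.22 FPKM.

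The 15 largest and 15 smallest ratios of protein-coding genes (above 0 in both libraries, 10 FPKM or more in one) differed in kind. Most of the largest belonged to the lists above. An exception was Urah (chr7:140834958-140846769), which encodes 5-hydroxyisourate hydrolase of urate breakdown, at 0.202 FPKM without LPS and 128 with it. Lcn2, Ccl2, Csf3, Urah, Oasl1, Zbp1, Ifi44, Rtp4 and Ptgs2 were under 1 FPKM without LPS, so the minimum fixed their direction. The smallest were more varied. Cytip (chr2:58129139-58195549), a scaffold of cytohesin and integrin regulation, was 20.96 and 0.470 FPKM, the smallest ratio of this group at -3.90. Cytip was under 1 FPKM with LPS, so the minimum fixed its direction too. Ankrd37 (chr8:45934619-46000414), an ankyrin repeat gene induced by hypoxia whose row overlaps Ufsp2, was 134 and 8.17 FPKM. S100a4 (chr3:90603770-90606045), a calcium-binding protein of motile cells, was 1506 and 243 FPKM. Mgst3, a microsomal glutathione transferase, was 52.7 and 7.65 FPKM and H2afx, the histone variant phosphorylated at DNA breaks, 166 and 25.9. Ptms (parathymosin) was 267 and 50.3 FPKM. Abcd2, a peroxisomal transporter of fatty acids, was 16.4 and 2.25 FPKM, and Bmyc, a short relative of MYC, 55.3 and 9.13. Among the largest ratios the authors' deposited table calls Acod1, but not Lcn2, Ccl5, Ccl2, Csf3, Urah or Isg15. Nor does it call Cytip, Ankrd37 or S100a4 among the smallest.

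**Figure D3:**
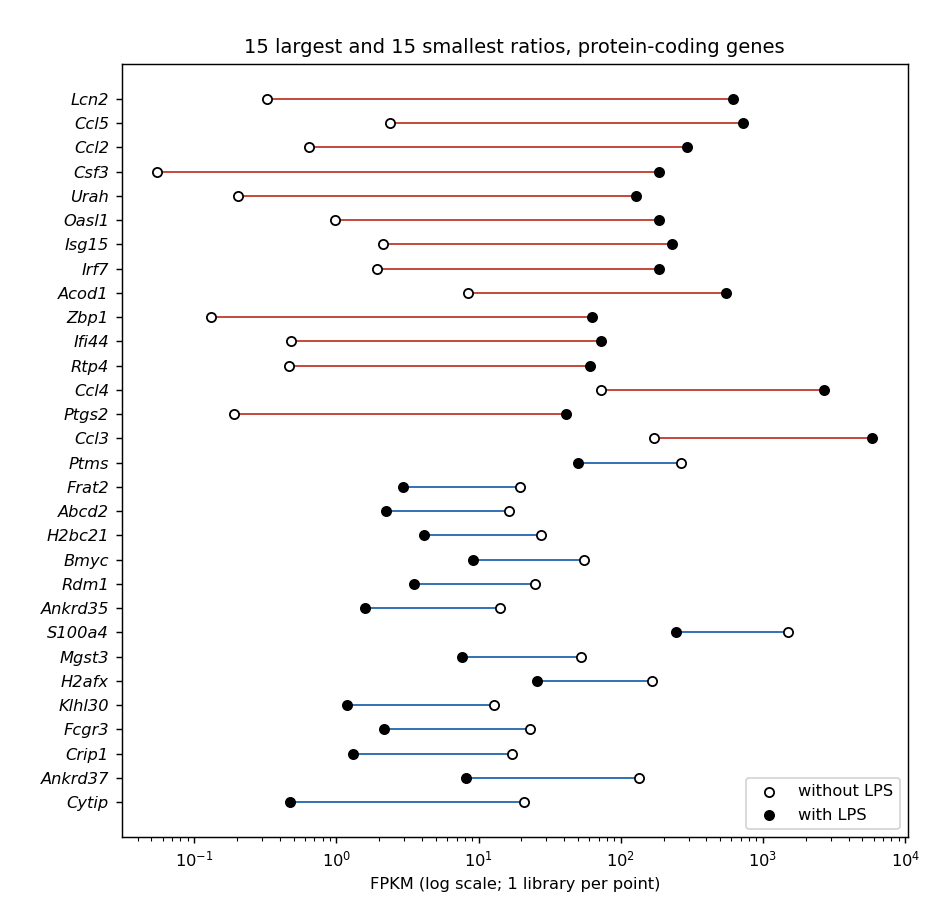
FPKM without LPS (open circles) and with LPS (filled circles) on a log scale for the 15 protein-coding genes with the largest and the 15 with the smallest ratios, 1 library per point, among genes above 0 in both libraries with 10 FPKM or more in one. Most of the upper 15 start below 3 FPKM without LPS, while Ccl3 and Ccl4 start at 171 and 72.2, and the lower 15 start between 12.8 and 1506 FPKM.

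Some genes were listed at 0 without LPS, which may reflect an estimate that failed. Named after their values were seen, Ccl7, Cstdc4, Il1f6, Stfa3 and Mx2 were listed at 0 without LPS and at 73.9, 45.1, 31.5, 14.7 and 9.56 FPKM with it. These 5 have q = 0.0174 in the authors' deposited table. Myo9a and Shld1, each with 2 rows, were also listed at 0 without LPS and at 51.5 and 6.81 FPKM with LPS, and both have q = 0.999 in the authors' deposited table. Il1f6 encodes interleukin 36 alpha, and Cstdc4 and Stfa3 belong to the stefin family of cysteine protease inhibitors, whose copies are alike enough to share reads. Of all 947 higher genes 59 were listed at 0 without LPS and of the 643 lower ones 38 were listed at 0 with it, and no fold is given for those. The authors' deposited table calls 42 loci with a symbol, 35 higher and 7 lower, and its smallest q is 0.0174. Of these, 23 were above 0 in both libraries, 21 of them higher.

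Higher genes lay beside each other more often than measured genes in general. The nearest non-overlapping measured gene was higher for 157 of 930 higher genes (16.9%), against 8.93% for all measured genes. For lower genes the nearest was lower in 54 of 639 cases (8.45%, against 5.25%). Runs of neighbours included the stefin genes Cstdc4, Csta3, Csta2, Stfa2 and Stfa3 followed by Cd86 (chr16:36184212-36666158), 6 genes all higher, of which the 5 stefin genes were listed at 0 without LPS and Csta3, Csta2 and Stfa2 were 2.74, 5.06 and 1.72 FPKM with it. On chromosome 1 a run of 10 higher genes ended in Sp140, Sp110 and Sp100 (chr1:85026349-85709998), where several members are predicted models of the same family. Among lower genes, runs of 4 rows held S100a3, S100a4 and S100a5 (chr3:90560356-90658130), and Cd300a, Cd300lb and Cd300c (chr11:114889152-114960507), where S100a3, S100a5 and Cd300c were listed at 0 with LPS. Neighbours within a family may share reads, so such runs are not separate observations.

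The letters in the promoters varied with direction. A promoter with 1 listed start was found for 6571 of the measured genes, and both strands were searched for 10 short motifs, which may overlap. The interferon-stimulated core occurred in 3.58% of all 22862 listed promoters, in 8.99% of 534 higher genes, in 14.3% of 112 genes at least 4-fold higher, in 4.75% of 379 lower genes and in 2.58% of 5658 genes within 2-fold. Of 23 antiviral effectors with a promoter, 13 (56.5%) held it. The AP-1 core TGANTCA was in 7.98% of all promoters, in 10.7% of higher genes, in 4.22% of lower genes and in 3.98% of genes within 2-fold. The NF-kB core differed little at 2-fold, in 1.41% of all promoters and in 1.69%, 1.58% and 1.38% of higher, lower and other genes. Among the 112 genes at least 4-fold higher it was in 4 (3.57%), with a wide 95% counting interval of 0.98% to 8.89%. The CHR TTTGAA was in 18.5% of all promoters, in 20.6% of lower genes, in 14.8% of higher genes, in 17.9% of genes at least 4-fold higher and in 11.5% of genes within 2-fold. Of the 23 antiviral effectors 6 (26.1%) held it. Of 39 mitosis genes with a promoter, 27 (69.2%) held it, against 2 of 30 replication genes (6.67%). The E2F core TTCCCGC, in 4.60% of all promoters, was the reverse, in 13 of 30 replication genes (43.3%) and 1 of 39 mitosis genes (2.56%).

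The remaining motifs were counted likewise. CCAAT was in 38.2% of all promoters, in 47.5% of lower and 37.1% of higher genes, and in 13 of 14 sterol synthesis promoters. TATAAA was in 14.8% of all promoters, in 10.7% of higher genes, in 14.3% of genes at least 4-fold higher and in 6.31% of genes within 2-fold. TGATGNAA, an element of C/EBP and ATF factors, was in 4.18% of all promoters, in 4.31% of higher genes, in 7.14% of genes at least 4-fold higher and in 2.19% of genes within 2-fold. TTCNNNGAA, the gamma-activated core, was in 8.49% of all promoters and in 7.68% of higher and 6.72% of other genes. TGACGTCA, the cyclic AMP response element, was in 1.85% of all promoters and in 2.996% of higher and 3.76% of other genes. Base composition moved with direction too: the median ratio of observed to expected CpG was 0.355 in genes at least 4-fold higher, 0.651 in all higher genes, 0.685 in lower genes and 0.804 in genes within 2-fold. The part of base composition in the motif shares was not tested. A match describes letters in a window and is not a binding site.

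**Figure D4:**
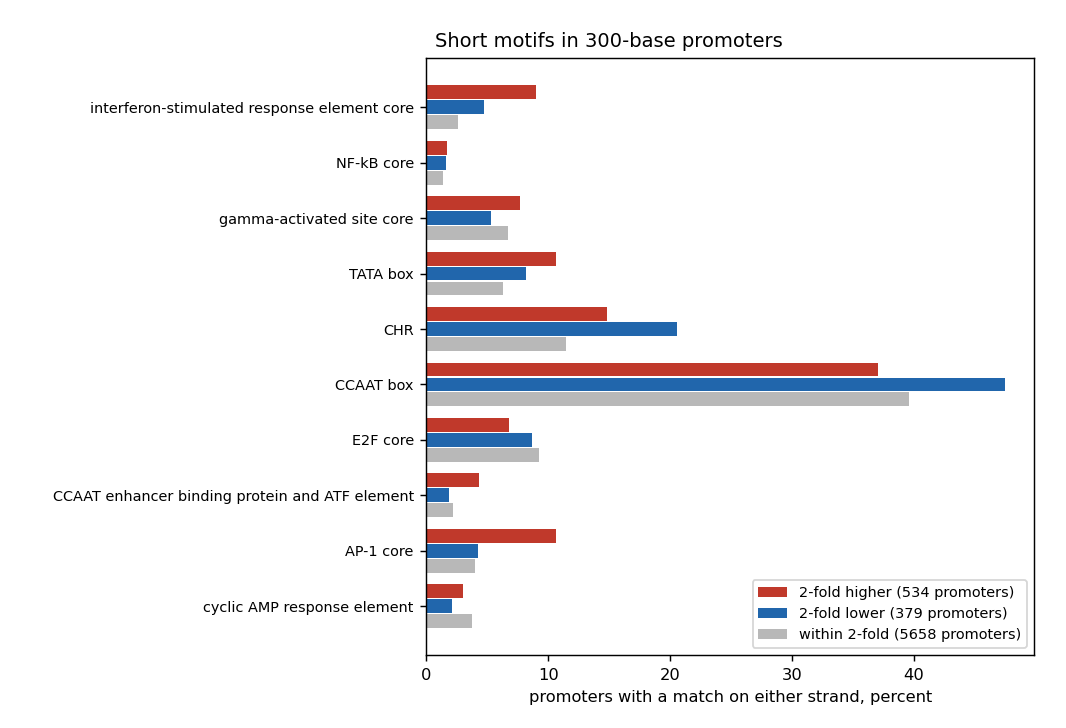
Share of 300-base promoters with a match to each of 10 short motifs on either strand, in percent, for genes 2-fold higher (red, 534 promoters), 2-fold lower (blue, 379) and within 2-fold (grey, 5658). The interferon-stimulated core and the AP-1 core are most frequent in higher genes, at 8.99% and 10.7%, and the CHR in lower genes, at 20.6% against 14.8% in higher genes.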

How the data were processed

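Per the labels' protocols, total RNA was isolated by RNAiso Plus for Illumina libraries. Cuffdiff, TopHat2, fastp and FastQC appear in the submitters' processing notes with no version, as do mm10 and GRCm38. The authors deposited FPKM values, their log2 ratio, a test statistic (a score) and p-values and q-values for each locus, per the file headers, while the sources used here leave annotation, scaling and strand unstated. Reads were not counted here. The authors' test was made without replicates, and its q-values appear only where the authors' deposited table is named.

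Only the table of both high density libraries was used for ratios (49971 rows, 1233 without a symbol set aside, 12 failed). The density table was used to count the genes of the series. Where a symbol had several rows, that of largest sum was kept, and starts were raised by 1. Rows joining several symbols (333 measured) were left out of lists. A list was called at a median of 1.5-fold. Gene types, promoters and names come from RefSeq on GRCm38.p6 and transcript lengths from GENCODE. Values were computed with Python 3.11.15, pandas 2.3.3, NumPy 2.4.6, and SciPy 1.17.1, and figures with Matplotlib 3.10.9.

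The genes, 46 lists, 10 families by name and 10 motifs were chosen with earlier results of these data known. The rule named the 15 largest and 15 smallest ratios of protein-coding genes (above 0 in both libraries, 10 FPKM or more in one), up to 5 members of each list at 5 FPKM or more with the largest absolute ratio, members opposite to their list's call, the 15 most abundant protein-coding genes of each library, and 21 genes fixed by name. Others are said to be named after their values were seen, as are Elane, the genes of runs and those listed at 0. A few of these named genes are left unreported. Alternatives were other pseudocounts, minimums, treatments of several rows, scalings and leaving out genes listed at 0.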

Additional observations from a re-analysis of the deposited data

How the results depend on the processing

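No paired analysis was possible because each group had 1 library. At a pseudocount of 5, 475 genes were higher and 241 lower, and at 0.1 the lower genes were 1030. No list median, named gene or share changed sign past its call in the alternatives run. With no minimum on FPKM, medians under the 1.5-fold call were 0.46 for chemokines, 0.43 for interleukins and growth factors, 0.48 for acute-phase proteins, 0.57 for interferon-regulated factors, 0.31 for co-stimulation, 0.49 for scavenger and related receptors and 0.41 for the TNF receptor superfamily. At a pseudocount of 5 they were 0.56 for interferon-regulated factors, 0.54 for MHC class I, 0.48 for co-stimulation, 0.50 for amino acid transporters and for AP-1 and related factors, 0.48 for scavenger receptors and 0.37 for TNF receptors. At the same upper quartile they were 0.57 for MHC class I, 0.53 for amino acid transporters and 0.53 for TNF receptors, and sterol synthesis was at -0.60. With only symbols of 1 row, co-stimulation was at 0.55 and the nitric oxide list at 0.77, and aminoacyl-tRNA synthetases were at 0.64, as at a minimum of 5 FPKM. The share of higher genes with a higher neighbour was 12.4% at a pseudocount of 5 and 12.2% with no minimum. Of all genes, 4.31% and 5.21% were higher at these settings. The share of lower genes with a lower neighbour was 14.8% at a pseudocount of 0.1 and 12.7% at the same upper quartile. Of all genes, 9.36% and 7.43% were lower there. Taking any listed start, chosen after seeing the data, put the AP-1 core in 6.93% of lower genes. The causes were not tested. The medians of the prostaglandin, macrophage marker, reference, solute carrier, Zfp and interleukin receptor groups took both signs, so no direction is given. Of the named genes, 43 came under 2-fold at a pseudocount of 5. With 1 library per group, no value has a replicate error, and values near 1 FPKM are limited by depth.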

Other observations

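Histone genes, a list drawn up after values were seen, went both ways. Of 34 measured by name 12 were higher and 5 lower. Of the higher ones 10 were under 1 FPKM without LPS and so measured only through the LPS library, and the minimum fixed their direction, among them H4c4 at 0.863 FPKM without LPS and 6.51 with it and H1f4 at 0.252 and 3.92. The linker histone gene H1f0, known from cells that leave the cycle, was 158 and 62.3 FPKM and H2bc21 27.5 and 4.14. Hist1h2ao was 391 and 113 FPKM. The other 2 lower genes were under 1 FPKM with LPS. Replication-dependent histone copies are near-identical and their mRNAs lack a poly-A tail, and the library selection is not given, so these values are uncertain.

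Transcript classes differed in how often they passed 2-fold. Of 699 long non-coding RNAs 89 were higher and 97 lower (12.7% and 13.9%), against 8.24% and 5.10% of 9597 protein-coding genes. Of 23 small nucleolar RNAs 10 were higher and 8 lower. Genes with a mean level under 1 FPKM had 13.1% higher and 13.6% lower, so low level moves with these shares, and its part in them was not tested.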
